A study of Rattus norvegicus with 11 samples.

Results

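Podocytes and stromal cells of the rat kidney are described here as the 636 cells that the authors named Podo/Stroma, of 114615 cells in all (0.555%). The members are every cell with exactly that name, which is 1 of 21 cell type names in the authors' table. The rule uses the name alone and no measured value. The cells came from 11 male ZSF1 rats, 12 weeks old on arrival, in 3 groups: 3 obese rats given enalapril in the drinking water (Obese+enalapril), 4 obese rats (Obese) and 4 lean rats (Lean). Podo/Stroma cells number 147 in the enalapril-treated, 334 in the obese and 155 in the lean rats. Obese ZSF1 rats inherit defective leptin receptor alleles from both parents, the fa and the cp allele, and develop obesity, diabetes and kidney disease. All 11 animals carry the same genotype entry in the labels, ZSF1-LeprfaLeprcp/Crl, and lean and obese rats are told apart by the group name. Obese rats were split at random between vehicle and enalapril, the labels give no dose and no vehicle for the lean rats. Each library is 1 animal, taken from a PBS-perfused kidney that was enzymatically dissociated and cleared of debris and dead cells.

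Podocytes are the epithelial cells that wrap the glomerular capillaries with interlocking foot processes, and the slit diaphragms between these processes keep protein out of the filtrate. Stromal cells of the kidney include fibroblasts, pericytes, vascular smooth muscle and the mesangial cells of the glomerulus, and many of them carry Pdgfrb, a receptor for platelet-derived growth factor. In diabetic kidney disease podocytes are injured and lost, and stromal cells lay down the matrix of glomerular and interstitial scars. Enalapril inhibits angiotensin-converting enzyme, and such drugs lower the pressure in the glomerulus and the loss of protein. Glomerular endothelial cells (GEC) line the same capillaries and are the other glomerular type in the table.

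The table used here gives each cell its name, unique molecular identifiers (UMIs, the count of captured RNA molecules), genes detected, mitochondrial share, cell cycle calls and position on a map, but no value of any gene. Pdgfrb and other marker genes of these cells could therefore not be looked at, and podocytes could not be separated from stromal cells. The joint name is kept throughout. The libraries held 4232 to 18427 cells, more than the 10000 loaded in 6 of 11 animals. Lean rat 2 stood apart: its median was 407 UMIs per cell, against 1132 to 3092 in the other animals, and it gave 9 Podo/Stroma cells. For obese minus lean rats, the differences in shares, in the ratio to GEC and in the medians below are given with and without it. Of the 636 Podo/Stroma cells, 22 had a barcode that also occurs in another library, and no barcode was shared by Podo/Stroma cells of different libraries, 0 of 636. The prefixes of the sample codes each belong to 1 group, so any batch that they mark and the group cannot be told apart. The p-values over animals rest on the spread between the animals of these groups. Those of edgeR and limma also draw on the spread of the other types in the same animals.

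Podo/Stroma cells did not all lie together on the authors' map. Most lay on 1 main island, nearest GEC or cells named DTL, read as the descending thin limb of the loop of Henle. The rest were mainly nearest to PCT, the convoluted proximal tubule. When cells at most 0.5 map units apart were linked, 556 of the 636 cells (87.4%) fell on 1 main island, and 80 cells lay off it. There were 30 islands in all. Of these 80 cells, 65 had a PCT cell as their nearest cell of another type, 5 had a TAL cell (thick ascending limb), and 10 had a cell of another name. The second largest island held 28 cells of 10 animals, with a median of 4041.5 UMIs.

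How uniform the name was among neighbours on the map is a description with no test. The map and the names come from the same cells, and how the cells were named is not given. For each Podo/Stroma cell, a median of 86.7% of its 15 nearest cells had the same name, against 100% for GEC, DTL cells and Uro cells (urothelium) and 80% for Endo cells (other endothelium). A majority of the 15 neighbours had the name for 422 cells (66.4%), against 98.5% of GEC, 95.3% of DTL cells, 94.7% of Endo cells and 94.3% of Uro cells. For 89 Podo/Stroma cells (14.0%) no neighbour had it, against 0.804% of GEC and 1.82% of DTL cells. The neighbours of all Podo/Stroma cells were 64.4% Podo/Stroma, 11.9% GEC, 10.8% DTL and 10.4% PCT.

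**Figure D1:**
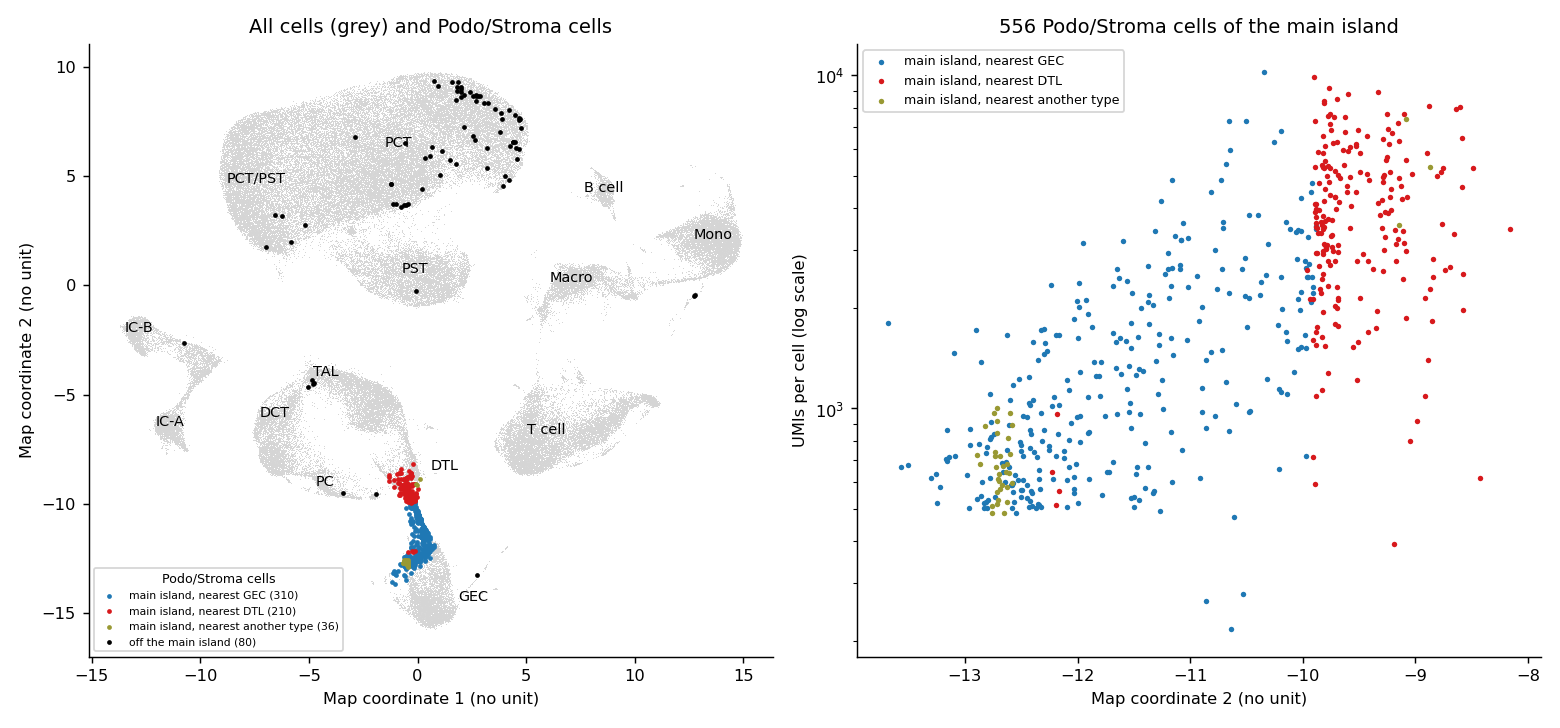
Left, the authors' map of all 114615 cells (grey, with the median position of 14 types written in) and the 636 Podo/Stroma cells, coloured by island and nearest other type. Right, UMIs per cell (log scale) against map coordinate 2 for the 556 cells of the main island. The 310 cells nearest GEC run along the low end with a median of 1113 UMIs, and the 210 cells nearest DTL lie at the high end with a median of 3692 UMIs.

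The main island had ends of very different RNA content. By the nearest cell of another type, 310 of the 636 cells (48.7%) lay on the GEC side, 210 (33.0%) on the DTL side, and 36 main-island cells (5.66%) were nearest to a further type, 33 to PCT and 3 to T cells. DTL-side cells had a median of 3692 UMIs and 1596.5 genes, against 1113 UMIs and 606.5 genes in GEC-side cells. The sides were drawn after the map was seen and come from the genes of the same cells, so they are a description without a test.

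The order of the sides was the same in each library. In enalapril-treated rats 1 to 3 the DTL-side medians were 2204, 4310.5 and 2977 UMIs, beside GEC-side medians of 819.5, 1028 and 1429.5 UMIs. In obese rats 1 to 4 they were 3860, 4254, 5078.5 and 5570.5 UMIs on the DTL side, beside 1569, 1337, 1098 and 1302 UMIs on the GEC side. In lean rats 1 to 4 they were 2034, 595, 2764 and 3369 UMIs on the DTL side, beside 873, 277, 830 and 1109 UMIs on the GEC side. The DTL side was thus higher in 11 of 11 animals, by 2.08 to 4.63 times. Within an animal, UMIs and map coordinate 2 of main-island cells had a Spearman rank correlation of 0.656 to 0.853 in 10 animals and 0.214 in lean rat 2, whose island held 8 cells. These cells share a library, and the coordinate comes from the same counts.

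The content of each side was set beside the type nearest to it. GEC-side Podo/Stroma cells had a lower median UMI count than the GEC of their own animal in 8 of 11 animals. DTL-side Podo/Stroma cells had a lower median than the DTL cells of their animal in 1 of 11. The mitochondrial share did not follow the UMIs: its median was 9.87% in DTL-side cells and 9.61% in GEC-side cells, and it was lower on the DTL side in 4 of 11 animals. The 80 cells off the main island had a median of 3113.5 UMIs and a mitochondrial median of 16.4%. That median was above both sides of the same animal except in enalapril-treated rat 1, obese rats 2 and 4 and lean rats 3 and 4.

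Each group held cells of both sides. The GEC side held 48.9% ± 6.05 of the Podo/Stroma cells of an animal in the 3 enalapril-treated rats, 46.5% ± 9.37 in the 4 obese rats and 56.0% ± 3.06 in the 4 lean rats (SD). The DTL side held 31.0% ± 3.56 in enalapril-treated rats, 33.5% ± 12.7 in obese rats and 29.6% ± 8.61 in lean rats (SD). The ranges of the groups overlapped on the DTL side, where obese rats alone ran over 21.8% to 48.8%. In obese rat 1 the DTL side was the larger, with 40 cells against 33 on the GEC side, and in obese rat 3 the sides were equal with 48 cells each.

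**Figure D2:**
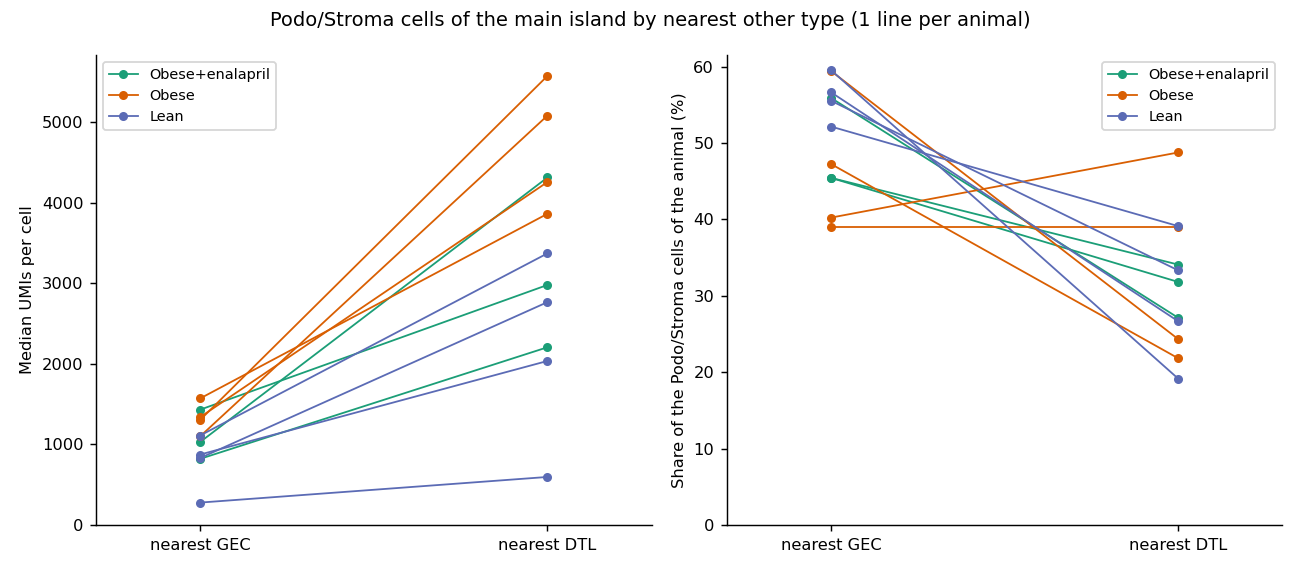
Median UMIs per cell (left) and the share of an animal's Podo/Stroma cells (right) for main-island cells nearest GEC and nearest DTL, with 1 line per animal coloured by group. Every line on the left rises towards DTL, by 2.08 to 4.63 times, while on the right the lines of the groups run through each other.

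Podo/Stroma cells as a whole spanned a wide range of depth. The median of the 636 cells was 1996 UMIs, with quartiles of 856.75 and 3633.5 UMIs and extremes of 218 and 12065 UMIs. Genes per cell had a median of 984 (quartiles 497 and 1587.5), and the mitochondrial share had a median of 10.2% (quartiles 4.64% and 20.3%). Among 20 types, each ranked over the animals with at least 10 of its cells (10 animals for Podo/Stroma, 7 to 11 for the others), Podo/Stroma stood in the middle when each type's median was set against the rest of the same animal. It ranked 11th from the top for UMIs (log2 offset -0.03), 9th for genes (log2 offset 0.10) and 11th for the mitochondrial share (-0.386 percentage points).

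At matched depth the genes detected were similar to those of GEC. Among cells with 1500 to 2500 UMIs in 10 animals, Podo/Stroma cells had 966 ± 129 genes (mean ± SD of the animals' medians, 116 cells), GEC had 961 ± 75.6, DTL cells had 896.5 ± 69.5 and PCT cells had 810 ± 35.6. Podo/Stroma was the higher in 5 of 10 animals against GEC, 7 of 10 against DTL and 8 of 10 against PCT.

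The share of Podo/Stroma cells among all cells was highest on average in obese rats, but the groups overlapped and no difference passed a test. It averaged 0.441% ± 0.172 in the 3 enalapril-treated rats, 0.792% ± 0.359 in the 4 obese rats and 0.499% ± 0.287 in the 4 lean rats (SD). They made up 0.245%, 0.515% and 0.564% of the cells of enalapril-treated rats 1 to 3. In obese rats 1 to 4 the shares were 0.756%, 1.05%, 1.07% and 0.298%, and in lean rats 1 to 4 they were 0.422%, 0.213%, 0.896% and 0.464%. Obese rat 4 lay below 3 of the 4 lean rats and lean rat 3 above obese rats 1 and 4, so the groups overlapped. Counting error was large for a type this rare: the 9 cells of lean rat 2 allow a share of 0.0973% to 0.403% (exact 95% Clopper-Pearson interval, counting error only).

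In edgeR's quasi-likelihood test over the 20 types with a mean of at least 10 cells per animal, the log2 fold change of the share was 0.64 ± 0.49 (SE) for obese minus lean rats (adjusted p = 0.269). Of these 20 types, 60% were called in this comparison, and Podo/Stroma was not among them. For enalapril-treated minus obese rats it was -0.85 ± 0.53 (edgeR adjusted p = 0.371), where edgeR called 0 of 20 types (0%) and 2 had an unadjusted p under 0.05. For enalapril-treated minus lean rats it was -0.20 ± 0.53 (edgeR adjusted p = 0.830, 15% of types called), and it changed sign without lean rat 3 (0.23) or enalapril-treated rat 1 (0.10). Without lean rat 2 the first difference was 0.41, and without lean rat 3 it was 1.08.

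Shares of all cells move with the immune cells, which made up 17.8% ± 3.55 of the cells in the 3 enalapril-treated rats, 34.4% ± 2.74 in the 4 obese rats and 13.4% ± 5.96 in the 4 lean rats (SD). Of non-immune cells alone, Podo/Stroma made up 0.287%, 0.622% and 0.720% in enalapril-treated rats 1 to 3. The values were 1.10%, 1.69%, 1.63% and 0.451% in obese rats 1 to 4, and 0.512%, 0.231%, 1.11% and 0.509% in lean rats 1 to 4. Here 2 obese rats stood above all lean rats, and obese rat 4 stood below 3 of them.

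The difference between obese and lean rats was larger on this scale but did not pass. The log2 fold change was 1.02 ± 0.53 for obese minus lean rats (edgeR adjusted p = 0.143), with 20% of 15 types called. It passed without lean rat 3 (1.51, edgeR adjusted p = 0.0453), the lean animal with the highest share, and was 0.77 without lean rat 2 (edgeR adjusted p = 0.421). For enalapril-treated minus obese rats the log2 fold change was -1.17 ± 0.58 (edgeR adjusted p = 0.468). edgeR called 0 of 15 types there and 1 had an unadjusted p under 0.05. For enalapril-treated minus lean rats it was -0.15 ± 0.57 (edgeR adjusted p = 0.920), with 20% of types called, and its sign changed without lean rat 3 (0.34) or enalapril-treated rat 1 (0.17).

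**Figure D3:**
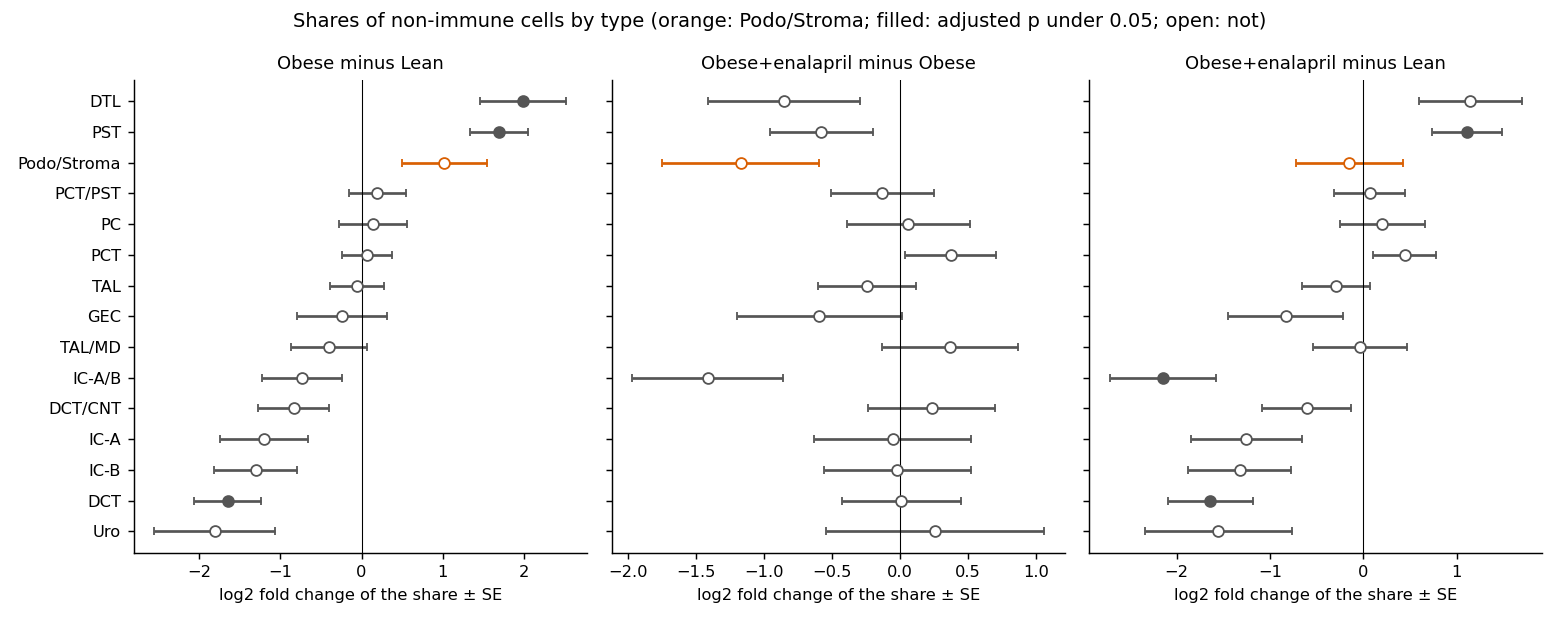
log2 fold change ± SE of the share of non-immune cells for 15 types in the 3 comparisons, ordered by the first; Podo/Stroma is orange, filled points have an adjusted p under 0.05 and open points do not. Podo/Stroma lies at 1.02 for Obese minus Lean, -1.17 for Obese+enalapril minus Obese and -0.15 for Obese+enalapril minus Lean, open in each.

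Set against the glomerular endothelium, Podo/Stroma cells were most numerous in the obese rats. There were 7.19, 11.8 and 11.8 Podo/Stroma cells per 100 GEC in enalapril-treated rats 1 to 3. In obese rats 1 to 4 there were 15.4, 14.8, 17.5 and 15.1, and in lean rats 1 to 4 there were 4.87, 14.3, 7.33 and 5.59. Each obese rat lay above each enalapril-treated and each lean rat, and enalapril-treated rats overlapped with lean rats. The high lean value is lean rat 2, with 9 Podo/Stroma cells against 63 GEC, while the other animals had 364 to 966 GEC. Counting main-island cells alone, the obese and lean rats overlapped, since lean rat 2 had 8 such cells for its 63 GEC and obese rat 4 had 42 for its 364 GEC (log2 difference 1.10, exact permutation p = 0.0571).

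The ratio of Podo/Stroma cells to GEC was 2.14-fold for obese over lean rats, a log2 difference of 1.10. Its exact two-sided permutation p was 0.0286, the lowest value that 4 obese and 4 lean rats can give. Adjusted over the 3 comparisons it was 0.0857. With these group sizes no p adjusted over the 3 comparisons could fall under 0.05, so the miss decides nothing. For enalapril-treated over obese rats it was 0.638-fold, a log2 difference of -0.65, with an exact permutation p of 0.0571, the lowest that 3 and 4 animals can give (adjusted p = 0.0857). For enalapril-treated over lean rats it was 1.37-fold (log2 difference 0.45, exact permutation p = 0.400, adjusted p = 0.400). Without lean rat 2, obese minus lean was 1.42 with an exact permutation p of 0.0571, again the lowest possible. Enalapril-treated minus lean was then 0.78 (exact permutation p = 0.2).

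The same count was made for the other types. Of 19 types set against GEC, 3 (15.8%) were higher in every obese than in every lean rat: Podo/Stroma, monocytes and B cells. In enalapril-treated rats, 2 of 19 (10.5%) were lower in every animal than in every obese rat: Podo/Stroma and monocytes. GEC themselves made up 4.19% ± 0.700 of all cells in the 3 enalapril-treated rats, 5.02% ± 2.22 in the 4 obese rats and 7.67% ± 4.48 in the 4 lean rats (SD). They did not pass edgeR's test of all cells for obese minus lean rats (-0.62 ± 0.51, adjusted p = 0.290) or for enalapril-treated minus obese rats (-0.26 ± 0.56, adjusted p = 0.680).

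**Figure D4:**
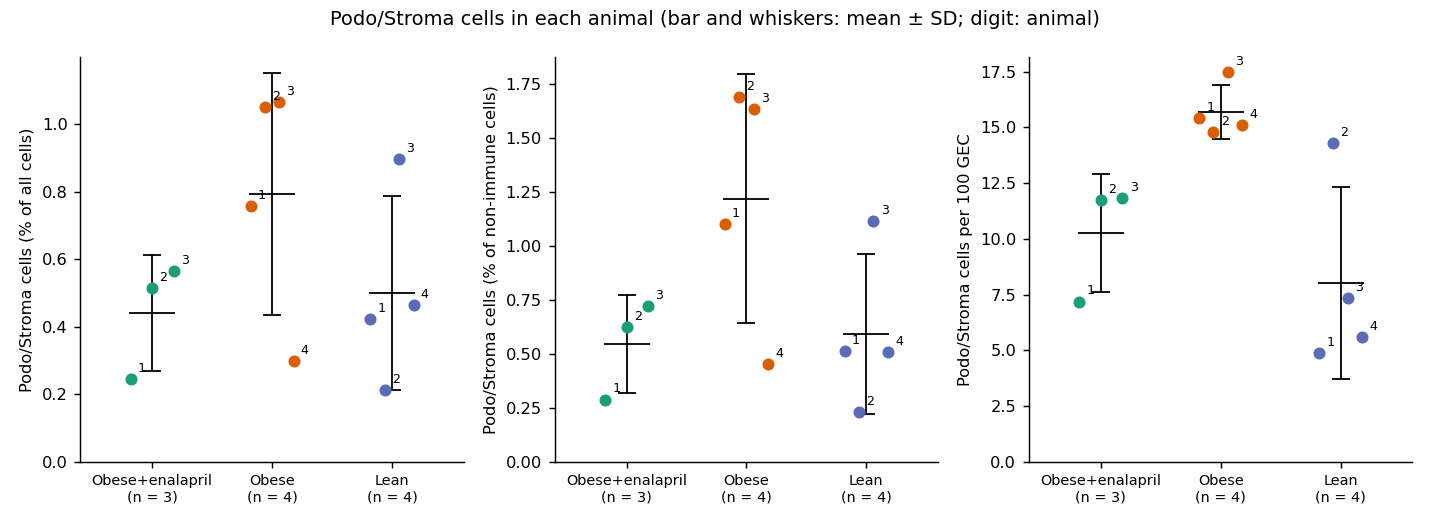
Podo/Stroma cells of each animal as a percent of all cells, as a percent of non-immune cells and per 100 GEC, with the mean ± SD of each group and the animal's number beside its point. The groups overlap in the first pair of panels; in the third the 4 obese rats sit between 14.8 and 17.5, above the 3 enalapril-treated and the 4 lean rats.

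The ratio moved with the depth of the cells counted. Among cells with at least 1000 UMIs, enalapril-treated rats 1 to 3 had 29.6, 8.77 and 11.9 Podo/Stroma cells per 100 GEC, obese rats 1 to 4 had 17.2, 11.5, 13.1 and 12.1, and lean rats 1, 3 and 4 had 5.77, 5.62 and 4.33. Lean rat 2 had 0 cells of either type at that depth. The obese rats lay above the lean rats with a value (log2 difference 1.36, exact permutation p = 0.0571), while the difference of enalapril-treated minus obese rats turned to 0.13. Enalapril-treated minus lean rats was 1.49 at that depth, without overlap, with an exact permutation p of 0.1, the lowest that 3 and 3 animals can give. How many other types lay without overlap between groups at that depth was not counted. In enalapril-treated rat 1, 108 of the 612 GEC and 32 of the 44 Podo/Stroma cells reached 1000 UMIs. Among cells under 10% mitochondrial UMIs the values were 7.50, 6.05 and 5.50 in enalapril-treated rats, 9.33, 7.09, 13.5 and 6.06 in obese rats, and 3.83, 15.3, 5.85 and 3.35 in lean rats. There the groups overlapped, with log2 differences of 0.56 for obese minus lean and -0.44 for enalapril-treated minus obese rats.

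Both sides of the main island contributed to the count per 100 GEC, as a description. GEC-side cells numbered 5.07 ± 1.67 per 100 GEC in the 3 enalapril-treated rats, 7.24 ± 1.11 in the 4 obese rats and 4.46 ± 2.35 in the 4 lean rats (SD). DTL-side cells numbered 3.17 ± 0.872 per 100 GEC in enalapril-treated rats, 5.31 ± 2.17 in obese rats and 2.51 ± 1.71 in lean rats (SD). Cells off the main island numbered 1.45 ± 0.443 in enalapril-treated rats, 2.02 ± 1.03 in obese rats and 0.975 ± 0.458 in lean rats (SD). These lean means include lean rat 2, whose 5 GEC-side cells gave 7.94 per 100 GEC.

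The median UMI count of Podo/Stroma cells was higher in each obese than in each lean rat. It was 1762, 1552 and 2604 UMIs in enalapril-treated rats 1 to 3. In obese rats 1 to 4 it was 3053, 2189.5, 2623 and 2515 UMIs, and in lean rats 1 to 4 it was 1480, 474, 1740 and 1528 UMIs. The lowest obese rat stood above the highest lean rat, and enalapril-treated rats overlapped with both groups. How many other types separated obese from lean rats in this way was not counted. The whole libraries moved as well, with a median over all cells of 2120 ± 865 UMIs in the 3 enalapril-treated rats, 2402 ± 524 in the 4 obese rats and 1530 ± 827 in the 4 lean rats (SD).

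No difference in UMIs passed a test. In limma over 20 types, with at least 10 cells of a type in an animal and so without lean rat 2 for Podo/Stroma, the log2 difference of the medians was 0.71 ± 0.47 (SE) for obese minus lean rats (adjusted p = 0.278). It was -0.42 ± 0.47 for enalapril-treated minus obese rats (limma adjusted p = 0.947) and 0.29 ± 0.50 for enalapril-treated minus lean rats (limma adjusted p = 0.667). With lean rat 2 in the fit, the first was 1.14 ± 0.60 (limma adjusted p = 0.227) and the third was 0.72 ± 0.65 (limma adjusted p = 0.583). limma called 0 of 20 types (0%) in each comparison, with 2, 0 and 1 types at an unadjusted p under 0.05. By limma p, Podo/Stroma ranked 11th of the 20 types for obese minus lean rats. Set against the other non-immune cells of the same animal, the median UMIs of Podo/Stroma cells were off by -0.16 ± 0.74 on the log2 scale in the 3 enalapril-treated rats, 0.26 ± 0.38 in the 4 obese rats and -0.11 ± 0.31 in the 4 lean rats (SD). The exact permutation p was 0.143 for obese minus lean rats (adjusted p = 0.429) and 0.400 for enalapril-treated minus obese rats (adjusted p = 0.600). With these group sizes the adjusted p of this permutation test could not fall under 0.05.

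Genes per Podo/Stroma cell followed the UMIs. The medians were 814.5, 791 and 1053.5 genes in enalapril-treated rats 1 to 3, 1298.5, 942, 1318 and 1035 in obese rats 1 to 4, and 740, 314, 1000 and 684 in lean rats 1 to 4. Here 3 of 4 obese rats lay above every lean rat. The log2 difference was 0.51 ± 0.43 for obese minus lean rats (limma adjusted p = 0.407), -0.37 ± 0.43 for enalapril-treated minus obese rats (limma adjusted p = 0.942) and 0.14 ± 0.46 for enalapril-treated minus lean rats (limma adjusted p = 0.827). With lean rat 2 in the fit, the first was 0.85 ± 0.51 (limma adjusted p = 0.285) and the third was 0.48 ± 0.55 (limma adjusted p = 0.702). limma called 0 of 20 types in each, with 1, 0 and 1 at an unadjusted p under 0.05.

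**Figure D5:**
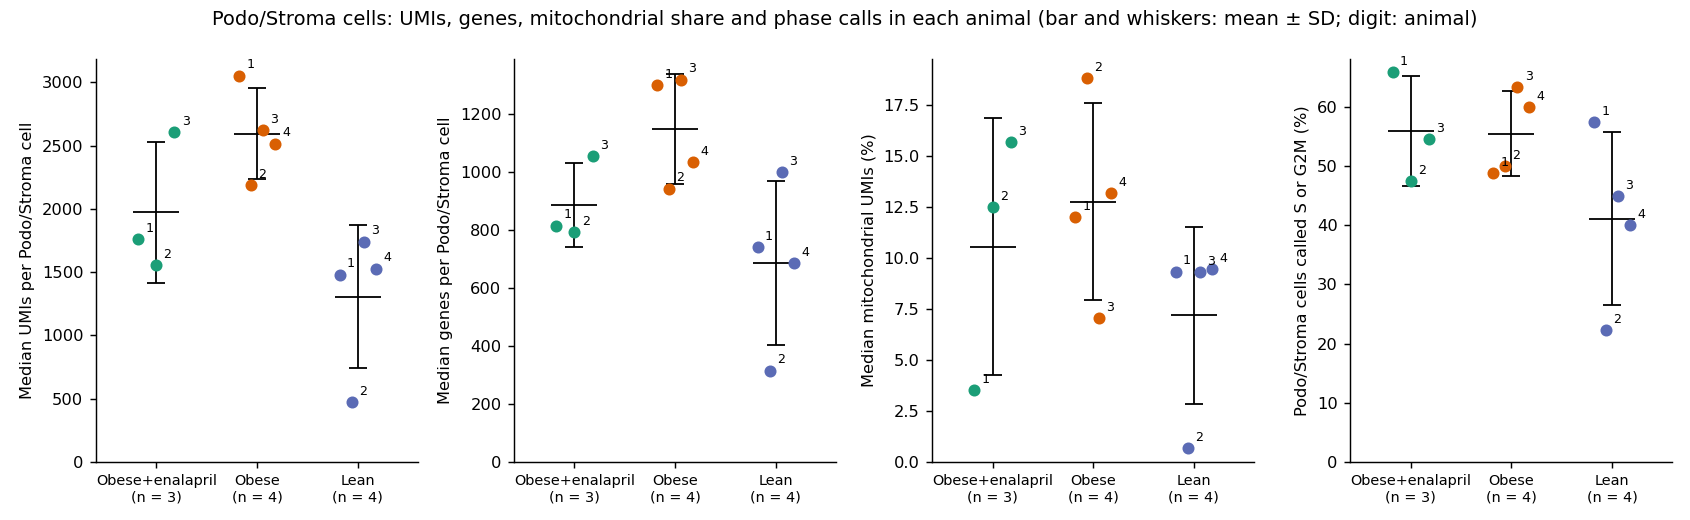
Median UMIs, median genes, median mitochondrial percent and percent of cells called S or G2M among the Podo/Stroma cells of each animal, with the mean ± SD of each group. The obese rats (2189.5 to 3053 UMIs) lie above all lean rats (474 to 1740 UMIs) in the first panel. How many other types do so was not counted. In the other panels the groups overlap.

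Mitochondrial UMIs made up a varied part of the RNA of Podo/Stroma cells. The medians were 3.50%, 12.5% and 15.7% in enalapril-treated rats 1 to 3, 12.0%, 18.8%, 7.04% and 13.2% in obese rats 1 to 4, and 9.32%, 0.669%, 9.31% and 9.43% in lean rats 1 to 4. Of the obese rats 3 lay above every lean rat, and the enalapril-treated rats ran across the ranges of both groups. Over all cells of a library the median was 11.9% ± 7.35 in enalapril-treated, 12.9% ± 2.77 in obese and 7.48% ± 3.52 in lean rats (SD). On that whole-library scale each obese rat lay above each lean rat. The Podo/Stroma difference was 3.40 ± 3.45 percentage points for obese minus lean rats (limma adjusted p = 0.419), where 5% of types were called. This fit leaves out lean rat 2. It was 5.57 points with lean rat 2 (limma adjusted p = 0.310), 1.38 without obese rat 2 and 5.30 without obese rat 3. It was -2.21 ± 3.45 for enalapril-treated minus obese rats (limma adjusted p = 0.679), with 0 of 20 types called and 2 at an unadjusted p under 0.05, and its sign changed without enalapril-treated rat 1 (1.32). For enalapril-treated minus lean rats it was 1.19 ± 3.69 (limma adjusted p = 0.830, 5% of types called), and its sign changed without enalapril-treated rat 3 (-1.37). With lean rat 2 it was 3.36.

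Podo/Stroma cells had a lower mitochondrial share than the other non-immune cells of their animal in 10 of 11 animals, with lean rat 4 the exception at 2.38 percentage points above. The offset was -3.35 ± 3.13 points in the 3 enalapril-treated rats, -5.57 ± 4.02 in the 4 obese rats and -1.59 ± 2.66 in the 4 lean rats (SD). It did not separate the groups (exact permutation p = 0.286 for obese minus lean and 0.286 for enalapril-treated minus obese rats, adjusted p = 0.429 for each). The adjusted p of this test could not fall under 0.05 with these group sizes. With GEC alone in place of all non-immune cells the offset was positive on average in each group. It was then 6.39 ± 4.47 points in enalapril-treated rats, 6.63 ± 2.98 in obese rats and 3.84 ± 2.52 in lean rats (SD). The obese minus lean difference turned to 2.79 points. At least 10% mitochondrial UMIs were found in 46.5% ± 33.2 of the Podo/Stroma cells of enalapril-treated rats, 61.5% ± 15.5 of obese rats and 35.1% ± 23.5 of lean rats (SD).

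The authors' cell cycle calls put 53.6% of all Podo/Stroma cells in S or G2M. Set against the rest of the same animal, Podo/Stroma ranked 13th from the top of 20 types for this percent. The mean offset was -2.81 percentage points, and it was positive in 3 of 10 animals. Such calls come from small scores and are not read here as division. The percent of an animal's Podo/Stroma cells called S or G2M was 56.0% ± 9.31 in the 3 enalapril-treated rats, 55.5% ± 7.26 in the 4 obese rats and 41.1% ± 14.6 in the 4 lean rats (SD). The groups overlapped, and the lowest value, 22.2%, came from the 9 cells of lean rat 2. The difference was 8.09 ± 6.86 percentage points for obese minus lean rats (limma adjusted p = 0.344), 0.422 ± 6.86 for enalapril-treated minus obese rats (limma adjusted p = 0.987) and 8.51 ± 7.34 for enalapril-treated minus lean rats (limma adjusted p = 0.620). limma called 0 of 20 types in each comparison, with 5, 0 and 1 at an unadjusted p under 0.05. For obese minus lean rats the SE was close in most types, such as 6.86 for Podo/Stroma, 6.36 for GEC and 6.39 for T cells. The limma p of this percent thus rests largely on a spread pooled over types of the same animals, not on that of Podo/Stroma alone. These fits leave out lean rat 2, which the means above include. With it the first difference was 14.4 points (limma unadjusted p = 0.0473, adjusted p = 0.168) and the third was 14.8 points (limma adjusted p = 0.305). The first was 13.1 without lean rat 1, 4.36 without lean rat 4 and 5.47 without obese rat 3. The second of these differences changed sign without obese rat 1 (-1.83), obese rat 2 (-1.43) or enalapril-treated rat 1 (-4.55).

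The mean S score of Podo/Stroma cells was -0.00676 ± 0.00561 in enalapril-treated rats, -0.00526 ± 0.00702 in obese rats and -0.0102 ± 0.0113 in lean rats (SD). The mean G2M score was -0.0185 ± 0.00955 in enalapril-treated rats, -0.0103 ± 0.00941 in obese rats and -0.0181 ± 0.0109 in lean rats (SD). The lowest limma adjusted p of these scores for Podo/Stroma over the 3 comparisons was 0.564. For enalapril-treated minus lean rats 5% of types were called by each score, and limma called 0 of 20 types in the others. There the S score had 6 types at an unadjusted p under 0.05 for obese minus lean rats and 1 for enalapril-treated minus obese rats, and the G2M score had 5 and 2.

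Across the 11 animals, the share of Podo/Stroma cells was compared with 6 other features of the library, and none passed after adjustment. With the GEC share Pearson's r was 0.557 (permutation p = 0.0753, adjusted p = 0.110) and Spearman's rho was 0.591 (permutation p = 0.0616, adjusted p = 0.105). It was 0.661 without lean rats 1 and 3, the animals farthest from the median GEC share, and 0.834 for deviations from the group means. With the share of proximal tubule cells r was -0.634 (permutation p = 0.0402, adjusted p = 0.110) and rho was -0.564 (adjusted p = 0.105). This r was -0.424 without the 2 farthest animals and -0.601 for deviations from the group means. These shares have the total of the animal as a common denominator. For the number of cells, the median UMIs and the median mitochondrial percent of the whole library, r was -0.287, 0.577 and 0.533, rho was -0.0727, 0.545 and 0.564, and the lowest adjusted permutation p of r was 0.110. Without the 2 farthest animals these r were 0.322, 0.232 and 0.597, and for deviations from the group means they were -0.547, 0.536 and 0.509. The myeloid share fell into separate clusters, with 14.6% to 22.1% in obese rats and at most 9.92% in the other animals, so no r over the pooled animals is given. For deviations from the group means r with the Podo/Stroma share was 0.696, as a description.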

How the data were processed

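Kidney cells of 11 rats were profiled with droplet 3' single-cell RNA sequencing. Per the submitters' processing notes, the rat build was rn6 and the software included Seurat 4.3.0 and Cell Ranger 7.0.1. How cells were filtered, clustered and named, and how doublets were treated, is not given in the sources. Per the file headers, the authors deposited raw counts of UMIs and of genes for every cell. The mitochondrial share is a percent deposited by the authors. S and G2M values are a score deposited by the authors, and the map coordinates are positions deposited by the authors. 0 cells lacked an animal or differed from the group of the labels.

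Cells of a type per animal were tested with edgeR 4.0.16 (robust quasi-likelihood F test with the animal's cells as library size). Medians, percents and scores were tested with limma 3.58.1 (at least 10 cells of a type in an animal and 2 animals per group). Single values were tested with exact two-sided permutation tests in R 4.3.3, whose adjusted p could not fall under 0.05 with these group sizes. Benjamini-Hochberg adjustment ran over types, or over 3 comparisons for single values, at 0.05. The unit is the animal, and edgeR and limma also draw on the spread of the other types in the same animals. Correlations were computed with scipy 1.17.1, and their permutation p used 100000 resamples. Alternatives included DESeq2 1.42.0, TMM factors and left-out animals. The edgeR and limma steps were tested on simulated data. The rule for named types took Podo/Stroma, GEC, Endo, Uro and any type that a result turns on. Cells were linked within 0.5 map units, and the sides of the island were chosen after the map was seen. The members and lists were chosen with earlier results of these data known.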

Additional observations from a re-analysis of the deposited data

Results flagged for a closer look

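Among 40 sets of a measure and a group of 4 animals, 5 had 1 animal far from the other 3, where chance gives about 1 in 20. Of these, 3 concern lean rat 2, whose Podo/Stroma cells had a mitochondrial median of 0.669%, 0% of cells with at least 1000 UMIs and 0% with at least 10% mitochondrial UMIs. These percents rest on 9 cells, and 0 of 9 allows up to 33.6% (upper end of the exact 95% Clopper-Pearson interval). Lean rat 1 had a mean S score of 0.00665, above the other lean rats. Lean rat 4 had a mitochondrial median 2.38 percentage points above that of the other non-immune cells of the animal, where the other lean rats lay below it.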

How the results depend on the processing

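In total 540 alternatives were computed for 33 results: 506 kept the direction and the side of the threshold, 33 changed sign and 1 passed the threshold. The cause was not tested. No result on Podo/Stroma passed as first computed. The ratio to GEC and the UMI and mitochondrial offsets could not pass in any setting, given the group sizes. Their alternatives can therefore show a change of direction only. The one that passed was the share of non-immune cells, obese minus lean, without lean rat 3 (1.51; range over left-out animals 0.77 to 1.51). Left-out animals changed the sign of these differences. For enalapril-treated minus lean rats the ranges were -0.44 to 0.23 (share of all cells), -0.40 to 0.34 (non-immune share), -1.37 to 4.71 points (mitochondrial percent), -0.00286 to 0.00928 (S score), -0.00601 to 0.00639 (G2M score), -0.40 to 0.33 (log2 UMI offset) and -2.74 to 0.0481 points (mitochondrial offset). For enalapril-treated minus obese rats they were -4.77 to 1.32 points (mitochondrial percent), -4.55 to 4.68 points (S or G2M) and -0.00376 to 0.00173 (S score). For obese minus lean rats the S score ran from -0.00137 to 0.0108.

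Other settings changed these signs. With at least 500 UMIs the S or G2M difference was -0.264 for enalapril-treated minus obese rats. With at least 1000 UMIs the log2 ratio to GEC was 0.13 for the same pair. On the main island alone, a setting chosen after the data were seen, the log2 difference in genes was -0.00672 for enalapril-treated minus lean rats. Against all other cells, immune included, the UMI offset was 0.0901 for enalapril-treated minus lean rats, and the mitochondrial offset was 0.0997 for obese minus lean and -1.10 for enalapril-treated minus obese rats. Against GEC alone, the UMI offset was 0.10 for enalapril-treated minus obese and 0.30 for enalapril-treated minus lean rats. The mitochondrial offset was then 2.79 for obese minus lean, -0.234 for enalapril-treated minus obese and 2.55 for enalapril-treated minus lean rats.

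The labels do not say that same-numbered animals belong together, and 5 of 10 same-numbered pairs had a correlation over 0.1 (range -0.444 to 0.516), so the numbers were not used as pairs. That 8 of 11 animals correlated best with their own number is a hint from the data, not the design. With the number as a replicate block, the mitochondrial difference of enalapril-treated minus lean rats was -0.310, and the obese minus lean log2 fold change of the non-immune share was 0.96 (edgeR adjusted p = 0.130). The block changed no call on Podo/Stroma. Depth limits these results most in lean rat 2, with 9 Podo/Stroma cells.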

Other observations

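The main island and the neighbour shares moved little with the settings of the map description, but the smaller islands moved much. With cells linked at 0.25 or 1 map unit in place of 0.5, the main island held 540 or 557 of the 636 Podo/Stroma cells, and 96 or 79 lay off it. There were then 58 or 15 islands in place of 30. The second largest island held 7 or 46 cells in place of 28. With 30 neighbours in place of 15, a median of 83.3% had the name, and 411 cells (64.6%) had it for a majority of their neighbours. Main-island cells nearest to a type other than GEC or DTL had the lowest depth, a median of 676 UMIs and 403 genes in 36 cells, and 61.1% of them were called S or G2M, against 54.2% on the GEC side and 53.3% on the DTL side.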
